A study of Mus musculus with 37 samples.

Results

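Immediate early genes, the first genes that a neuron transcribes after it has been active, were examined in ribosome-bound RNA from dopamine neurons and GABA neurons of the aging mouse midbrain. The 10 genes were chosen by symbol from the 57180 genes of each of the count tables: Fos, Fosb, Junb, Egr1, Arc, Npas4, Nr4a1, Nr4a3, Ier2 and Dusp1. All 10 passed the filter on low counts in every main comparison reported here, while some alternative settings gave no estimate for a gene.

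The study asked how aging alters the translatome of these neurons in both sexes. All mice carried the NuTRAP transgene at the Rosa26 locus, which encodes the ribosomal protein L10a fused to EGFP behind a stop cassette that Cre recombinase removes. In DAT;NuTRAP mice Cre was driven from the dopamine transporter gene (DAT IRES-cre), and in VGAT;NuTRAP mice from the vesicular GABA transporter gene (Vgat-ires-cre), so that GFP-tagged ribosomes could be pulled down with an antibody. The 37 libraries, 1 per mouse, came from 9 old (4 female, 5 male) and 10 young (5 female, 5 male) DAT;NuTRAP mice, and from 8 old (5 female, 3 male) and 10 young (6 female, 4 male) VGAT;NuTRAP mice. Old mice were 21 months of age, except 1 VGAT;NuTRAP female of 24 months, and young mice were 7 to 10.5 months. Mice aged in the colony with no treatment named, and brains went straight into ice-cold choline cutting solution after isoflurane and decapitation, a step the study took to limit gene induction by activity during collection.

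Immediate early genes need no newly made protein for their induction: calcium entry and the kinases behind it act on factors such as CREB and SRF that already sit at the promoter, and the transcripts appear within minutes and decay quickly. Fos, Fosb and Junb encode subunits of the transcription factor AP-1, and Egr1, Npas4, Nr4a1 and Nr4a3 encode transcription factors of the zinc finger, bHLH-PAS and orphan nuclear receptor families. Arc encodes a synaptic protein involved in AMPA receptor removal, Dusp1 encodes a phosphatase that turns off MAP kinases, and Ier2 encodes a small nuclear protein. In the midbrain these genes are widely used as marks of recent neuronal firing and of handling or stress.

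CREB binds the cAMP response element, and the promoter of Fos is a classic example of its use by calcium signals, so the sequences before the start site are shown for 5 genes that the results return to. RefSeq promoter windows (mouse build GRCm38.p6, 250 bases before to 50 bases after the start) were matched for 7 of the 10 genes, namely Fos, Fosb, Junb, Npas4, Nr4a1, Nr4a3 and Dusp1. The 250 bases upstream are given 5′ to 3′ on the gene's strand, and capitals mark the CRE core, TGACG or its reverse complement CGTCA.
Fos, chr12:85473640-85473889, plus strand: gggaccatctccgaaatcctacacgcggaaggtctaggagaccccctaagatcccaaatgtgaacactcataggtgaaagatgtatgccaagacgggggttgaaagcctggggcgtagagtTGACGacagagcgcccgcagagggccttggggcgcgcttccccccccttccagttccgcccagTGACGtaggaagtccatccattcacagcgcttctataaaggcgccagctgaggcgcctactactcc
Fosb, chr7:19310046-19310295, minus strand: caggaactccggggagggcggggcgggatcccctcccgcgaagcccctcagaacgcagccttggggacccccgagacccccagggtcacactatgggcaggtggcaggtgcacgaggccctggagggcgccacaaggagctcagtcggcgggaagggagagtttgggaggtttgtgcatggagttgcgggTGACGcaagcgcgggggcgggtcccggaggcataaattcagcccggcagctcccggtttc
Nr4a1, chr15:101266596-101266845, plus strand: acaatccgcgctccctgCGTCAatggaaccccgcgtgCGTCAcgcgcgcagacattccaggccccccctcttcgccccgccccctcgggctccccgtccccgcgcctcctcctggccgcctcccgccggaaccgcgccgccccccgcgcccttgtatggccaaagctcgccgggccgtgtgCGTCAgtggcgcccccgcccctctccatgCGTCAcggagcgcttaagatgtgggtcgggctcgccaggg
Npas4, chr19:4989972-4990221, minus strand: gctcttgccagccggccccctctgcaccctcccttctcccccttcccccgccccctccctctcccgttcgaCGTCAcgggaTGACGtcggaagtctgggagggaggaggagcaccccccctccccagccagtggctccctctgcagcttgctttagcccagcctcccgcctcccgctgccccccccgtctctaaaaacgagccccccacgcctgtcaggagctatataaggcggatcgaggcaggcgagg
Dusp1, chr17:26508473-26508722, minus strand: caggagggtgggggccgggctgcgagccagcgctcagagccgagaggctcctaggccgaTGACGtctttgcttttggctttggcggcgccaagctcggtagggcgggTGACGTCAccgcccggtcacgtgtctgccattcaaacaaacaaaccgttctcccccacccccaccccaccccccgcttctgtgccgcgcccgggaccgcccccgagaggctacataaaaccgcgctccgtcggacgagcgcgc
The CRE core, searched as TGACG on both strands, was in 7 of 7 matched windows, against 20.8% of the 32851 windows of the table. Nr4a1 and Nr4a3 held 4 copies each, Dusp1 3, Fos and Npas4 2 each, and Fosb and Junb 1 each. The Dusp1 copies at -143 and -140 overlap, since they are the 2 strands of 1 TGACGTCA. The complete CRE, TGACGTCA, lay in Dusp1 alone of the 7 and in 1.79% of all windows, and contains the CRE core by its construction. TGANTCA, the AP-1 motif, and the CArG box bound by SRF, searched as CCWWWWWWGG (W is A or T), had 0 matches in the 7 windows, against 7.81% and 1.63% of all windows. The search cannot show that these promoters lack such sites. Sites farther upstream, variants of the letters, and the promoters of Egr1, Arc and Ier2 were not covered. TATAAA was in 2 of 7 windows, against 13.6%. A match is a description of the letters and no measure of binding.

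Libraries held 13841253 to 38235015 counts, so that 1 CPM (the count scaled to library total and TMM normalization factor) rested on at least 13 counts in every library. In DAT;NuTRAP and VGAT;NuTRAP libraries the summed level of 4 dopamine neuron markers was 9320 to 13800 and 696 to 2960 CPM. That of 3 GABA neuron markers was 201 to 630 and 3150 to 4340 CPM, so each pull-down was richer in markers of its labelled cell type. VGAT;NuTRAP libraries still held dopamine neuron markers, with a mean of 797 CPM for Slc6a3 (3274 in DAT;NuTRAP) beside 421 CPM for Slc32a1. The part of this in the differences between models was not tested. Ddx3y, a Y-linked gene, was at 59.6 CPM or more in all 17 male libraries and at 1.11 or less in all 20 female libraries. Xist, an X-linked transcript of female cells, was at 2.5 CPM or more in female libraries. In male libraries it was at 0.261 CPM or less, except in old VGAT;NuTRAP male 2. That library held 5.1 CPM of Xist beside 94.3 CPM of Ddx3y. The cause was not tested, and the library was kept in the main comparisons. Libraries carried a first or second batch label (11 second and 8 first in DAT;NuTRAP, 12 and 6 in VGAT;NuTRAP), and batch was a term of each comparison, except where a single batch or another setting is named. A group of 3 libraries stood apart: in young DAT;NuTRAP male 2, old VGAT;NuTRAP male 1 and young VGAT;NuTRAP male 1, all of the first batch, the 5% of transcripts richest in G and C had a median deviation of -0.66, -0.41 and -0.64 log2 from the median library of the model. The other 34 libraries lay between -0.26 and 0.18. Results that rest on these 3 libraries are given with and without them where such a fit was run, a choice made after the data were seen. The first batch as a whole leaned lower in this measure. In DAT;NuTRAP it ran from -0.66 to 0.0 log2 in the first and from -0.0 to 0.18 in the second batch. In VGAT;NuTRAP it ran from -0.64 to -0.0 in the first and from -0.03 to 0.09 in the second.

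The immediate early genes were present at modest levels. Per kilobase of the canonical transcript, Fos was the highest of the 10 in both models, at 9.93 ± 5.64 CPM per kb in DAT;NuTRAP and 12.6 ± 4.76 in VGAT;NuTRAP libraries (SD, n = 19 and 18). Dusp1 came next, at 8.15 ± 2.36 and 9.26 ± 1.54 CPM per kb. In DAT;NuTRAP libraries the order went on with Junb (6.05), Nr4a1 (4.49), Egr1 (4.21), Ier2 (3.08), Arc (3.07), Fosb (1.64), Nr4a3 (1.17) and Npas4 (0.198). The order in VGAT;NuTRAP libraries was Egr1 (8.12), Junb (5.98), Arc (5.24), Nr4a1 (2.90), Ier2 (2.31), Fosb (1.89), Nr4a3 (1.22) and Npas4 (0.260). Neighbours in these orders differed by more than both of their SDs only between Arc and Fosb in DAT;NuTRAP, and between Nr4a3 and Npas4 in both models.

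Npas4, a factor induced by calcium influx, was barely detected. It had 0 counts in 5 of 19 DAT;NuTRAP libraries, 2 old and 3 young, where a count of 0 allows up to 0.0785 to 0.217 CPM (3 counts, counting error only), and at most 53 counts in the other old or young DAT;NuTRAP libraries. It was counted in every VGAT;NuTRAP library, at 0.244 to 1.81 CPM. Its estimates have the widest errors of the 10 genes in DAT;NuTRAP libraries.

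**Figure D1:**
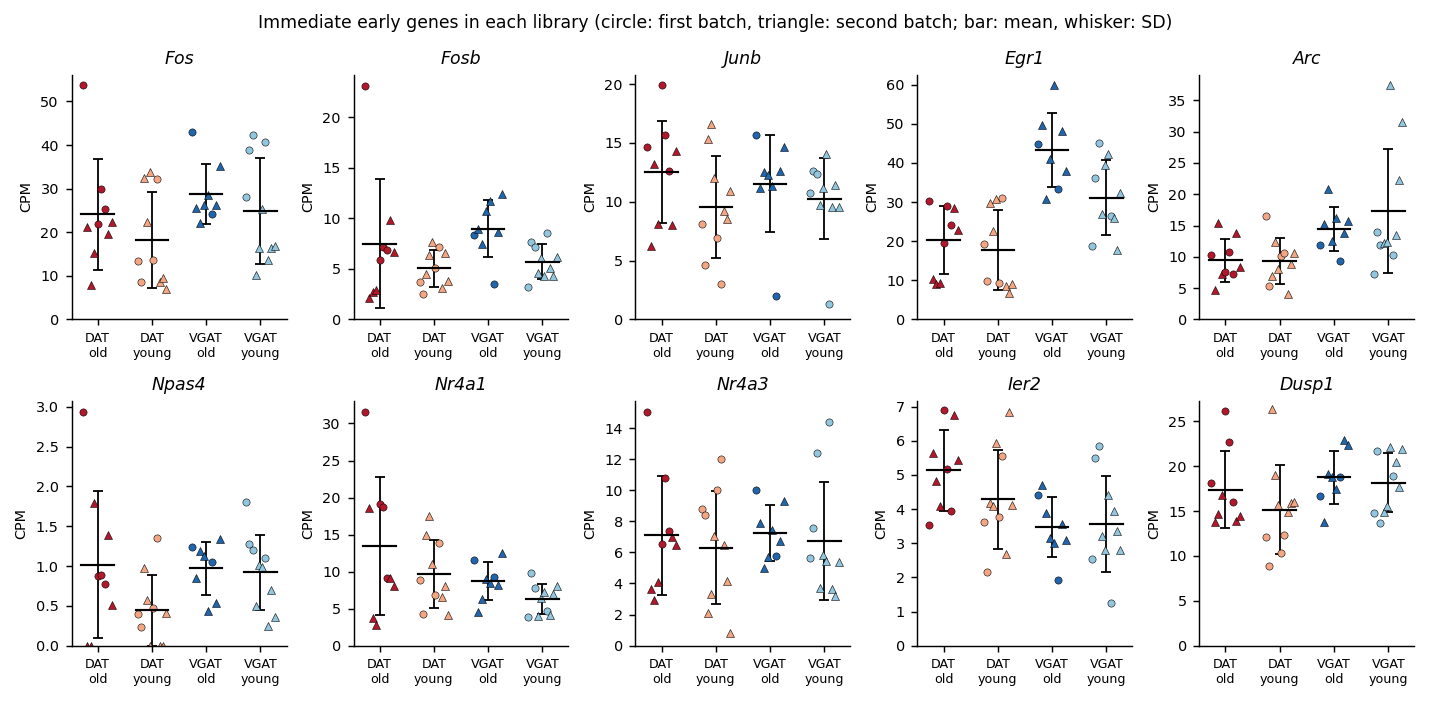
CPM of each gene (y axis, linear from 0) in every library of old and young DAT;NuTRAP and old and young VGAT;NuTRAP mice (x axis); circles mark the first batch and triangles the second, bars are means and whiskers SDs (cut at 0 for Npas4). Egr1 of old DAT;NuTRAP libraries, at most 30.3 CPM, lay below that of old VGAT;NuTRAP libraries, at least 30.9 CPM, and for the other genes old and young libraries, and the models within an age, overlapped.

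Dopamine neurons were compared with GABA neurons in one fit of all 37 libraries. Egr1 and Arc were lower and Nr4a1 and Ier2 were higher in DAT;NuTRAP than in VGAT;NuTRAP libraries, 4 of 10 genes at an adjusted p below 0.05 (edgeR quasi-likelihood test, Benjamini-Hochberg over 16898 genes). Of all genes tested, 60.5% passed the same threshold, a larger share than that of the immediate early genes. Higher calls made up 30% and lower calls 30.4% of all genes, and the 10 genes had 2 of each. Their median log2 fold change was -0.25, against 0.01 for all genes, whose middle 50% ran from -0.46 to 0.49. In a pull-down from tissue, fewer cells of a type and less RNA per cell cannot be told apart.

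Egr1 (chr18:34992876-34998049, plus strand, build GRCm39), the zinc finger factor used to map plasticity, showed the clearest difference. Its level was 6.75 at the lowest, 19.4 at the median and 31.1 CPM at the highest in DAT;NuTRAP libraries, against 17.8, 37 and 59.9 CPM in VGAT;NuTRAP libraries. The ranges overlapped, yet the DAT;NuTRAP median was close to the lowest VGAT;NuTRAP library. The log2 fold change was -0.98 ± 0.21 (SE, adjusted p = 9.34e-05), or 0.507 times the VGAT;NuTRAP level, and it stayed between -1.09 and -0.92 with each of the 37 libraries left out. It was -1.15 in the second batch alone (adjusted p = 0.00137) and -0.74 in the first (adjusted p = 0.0701).

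Arc (chr15:74540932-74544419, minus strand), whose mRNA is carried to active dendrites, ran from 4.00 to 16.5 CPM in DAT;NuTRAP libraries with a median of 8.84, and from 7.28 to 37.5 CPM in VGAT;NuTRAP libraries with a median of 13.7. The highest values belonged to young VGAT;NuTRAP mice of the second batch. The log2 fold change was -0.68 ± 0.18 (adjusted p = 0.00144), between -0.75 and -0.61 with any single library left out. It rested on the second batch, with -1.03 there (adjusted p = 0.000181) and -0.15 in the first (adjusted p = 0.610).

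Nr4a1 (chr15:101151980-101172681, plus strand), an orphan nuclear receptor, went the other way. It ranged from 2.81 to 31.6 CPM in DAT;NuTRAP libraries (median 9.18) and from 3.85 to 12.5 CPM in VGAT;NuTRAP libraries (median 7.49). The highest values were in DAT;NuTRAP libraries, while most libraries of both models overlapped. The log2 fold change was 0.56 ± 0.23 (adjusted p = 0.0299). The call was lost without old DAT;NuTRAP female 1 (0.46, adjusted p = 0.0622), old DAT;NuTRAP female 2 (0.49, 0.0637), young DAT;NuTRAP female 3 (0.46, 0.0765) or young DAT;NuTRAP female 4 (0.47, 0.0666), without the 3 libraries low in GC-rich transcripts (0.50, 0.0765), and within either batch (0.38, 0.231 in the second and 0.63, 0.159 in the first).

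Ier2 (chr8:85387960-85389483, minus strand) ranged from 2.15 to 6.89 CPM in DAT;NuTRAP libraries (median 4.17) and from 1.25 to 5.86 CPM in VGAT;NuTRAP libraries (median 3.29), with 0.42 ± 0.17 on the log2 scale (adjusted p = 0.0334). The lowest VGAT;NuTRAP values, 1.25 and 1.93 CPM, came from the young male 1 and old male 1 that were low in GC-rich transcripts, and without the 3 such libraries the difference was 0.30 (adjusted p = 0.126). Leaving out any of 8 single libraries also ended the call. For DAT;NuTRAP these were young female 3 (0.39, adjusted p = 0.0521), old male 1 (0.39, 0.0558), old male 4 (0.40, 0.0509), old male 5 (0.39, 0.0540), young male 2 (0.40, 0.0502) and young male 4 (0.37, 0.0616), and for VGAT;NuTRAP old male 1 (0.38, 0.0638) and young male 1 (0.37, 0.0508). Within batches it was 0.49 (adjusted p = 0.0632) in the second and 0.30 (0.507) in the first.

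The other 6 genes did not pass. Fos gave -0.39 ± 0.21 (adjusted p = 0.105), with an interval of ± 2 SE from -0.80 to 0.03. It passed without old DAT;NuTRAP female 1 (-0.47, adjusted p = 0.0441), young DAT;NuTRAP female 3 (-0.52, 0.0237) or young DAT;NuTRAP female 5 (-0.49, 0.0299). Fosb (-0.27 ± 0.22) passed without old DAT;NuTRAP female 1 (-0.44, adjusted p = 0.0434) and Dusp1 (-0.17 ± 0.11) without young DAT;NuTRAP female 3 (-0.27, 0.0193). Junb stood at 0.04 ± 0.22, Nr4a3 at -0.24 ± 0.19 and Npas4 at -0.60 ± 0.51.

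Split by age, Egr1 was lower in DAT;NuTRAP than in VGAT;NuTRAP libraries in old mice (-1.14 ± 0.30, adjusted p = 0.00228) and in young mice (-0.82 ± 0.28, adjusted p = 0.0127). It was the only one of the 10 genes called in old mice, where 46.8% of all genes were called, and its ranges there did not overlap, as for 14.7% of all genes, 8.97 to 30.3 CPM in DAT;NuTRAP and 30.9 to 59.9 CPM in VGAT;NuTRAP libraries. Leaving out old DAT;NuTRAP female 1 brought the count in old mice to 3, with Fosb (-0.71, adjusted p = 0.0409) and Ier2 (0.63, adjusted p = 0.0463). Ier2 also passed in old mice (0.59 ± 0.26, adjusted p = 0.0582, with all libraries) without old DAT;NuTRAP female 4 (0.63, 0.0473), old VGAT;NuTRAP female 1 (0.68, 0.0425), old VGAT;NuTRAP female 2 (0.66, 0.0457), young VGAT;NuTRAP female 3 (0.61, 0.0464) or young VGAT;NuTRAP male 1 (0.58, 0.0480). In young mice, where 49.8% of genes were called, Arc was lower as well (-0.83 ± 0.25, adjusted p = 0.00467). Without young DAT;NuTRAP female 2 Nr4a1 was called in young mice too (0.73, adjusted p = 0.0410), and without young DAT;NuTRAP female 3 Dusp1 was (-0.42, 0.0106).

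**Figure D2:**
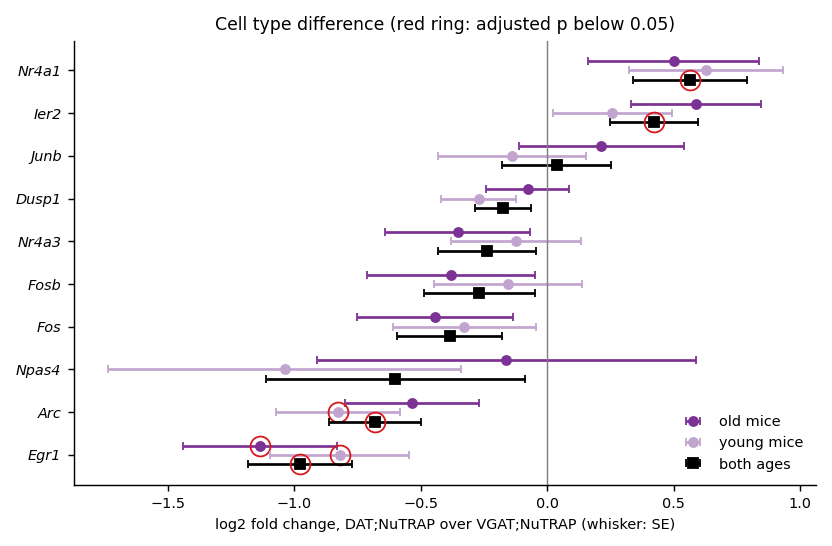
Log2 fold change of DAT;NuTRAP over VGAT;NuTRAP (x axis) for each gene (y axis) in old mice, young mice and both ages; whiskers are SEs and red rings mark an adjusted p below 0.05. Egr1 lies lowest with both ages, at -0.98, and Nr4a1 highest, at 0.56.

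Markers of most glial and vascular cells differed between the pull-downs. In DAT;NuTRAP against VGAT;NuTRAP libraries, 9 of 10 astrocyte markers, 8 of 8 oligodendrocyte, 8 of 8 endothelial and 4 of 4 tested mural markers were higher, and 1 astrocyte marker was lower. The lower one was Aldoc, with means of 468 CPM in DAT;NuTRAP and 666 CPM in VGAT;NuTRAP libraries. It was the largest single part of the summed astrocyte level in VGAT;NuTRAP libraries. Of 10 microglial markers 4 had estimates below 0. Their summed levels were 1020 to 3120 and 965 to 1520 CPM for astrocytes, 508 to 2350 and 247 to 968 CPM for oligodendrocytes, 59.5 to 291 and 32.0 to 76.9 CPM for endothelium, 20.6 to 119 and 5.52 to 17.9 CPM for mural cells, and 45.3 to 143 and 20.8 to 198 CPM for microglia. No astrocyte or endothelial marker was at 0 in any library, whereas Opalin in VGAT;NuTRAP and several mural markers in both models were at 0 in some. These cells also use immediate early genes, and their part in the differences above was not tested.

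With age, no immediate early gene passed the threshold in either cell type. In DAT;NuTRAP libraries, where 0.00672% of 14889 genes were called, 0 of 10 were called by edgeR, 0 by DESeq2, and 0 had an unadjusted p below 0.05, against 5.28% of all genes. All 10 estimates were above 0, with a median log2 fold change of 0.30 for old over young, against 0.00 for all genes (middle 50% from -0.11 to 0.13). In VGAT;NuTRAP libraries, where 0.0256% of 15607 genes were called, 0 of 10 were called by either tool, 8 of 10 estimates were above 0 with a median of 0.31 (all genes 0.00, middle 50% from -0.07 to 0.08), and 4 had an unadjusted p below 0.05, against 5.98% of all genes. Without the libraries low in GC-rich transcripts, 9 of 10 VGAT;NuTRAP estimates were above 0, with a median of 0.42. There 6 had an unadjusted p below 0.05 and 0 were called. All 10 DAT;NuTRAP estimates stayed above 0 in that setting, with a median of 0.33, 0 at such a p and 0 called. The shares of all genes at such a p in that setting were not counted.

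Among the AP-1 subunits, Fosb had the smallest p in VGAT;NuTRAP libraries. It measured 3.51, 8.78 and 12.4 CPM (lowest, median, highest) in old and 3.15, 5.55 and 8.57 CPM in young libraries, a log2 fold change of 0.65 ± 0.22 (adjusted p = 0.686). In the second batch the groups did not overlap, as for 0.806% of all genes, at 7.46 to 12.4 CPM in 6 old and 4.31 to 6.19 CPM in 6 young libraries, and the log2 fold change was 0.97 ± 0.16 (adjusted p = 0.00334, with 0.333% of genes called). In the first batch, with 2 old and 4 young libraries, it was -0.16 ± 0.47 and the groups overlapped, as they did for all 10 genes (13% of all genes did not overlap). These 2 old libraries were the female of 24 months and male 1, which was low in GC-rich transcripts. Young male 1, also low in them, was among the 4 young libraries. Without the libraries low in GC-rich transcripts Fosb gave 0.88 ± 0.17 (adjusted p = 0.0515). The difference between batches was not tested.

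Fos, the most used of these marks, measured 22.1, 26.2 and 42.9 CPM in old and 10.1, 21.0 and 42.3 CPM in young VGAT;NuTRAP libraries (0.47 ± 0.19, adjusted p = 0.823). In DAT;NuTRAP libraries it measured 7.78, 21.9 and 53.8 CPM in old and 6.89, 13.5 and 33.9 CPM in young mice (0.32 ± 0.36, adjusted p = 1.00). The ages overlapped in both models. For Junb the estimate was 0.45 ± 0.27 in DAT;NuTRAP libraries and 0.11 ± 0.35 in VGAT;NuTRAP libraries. Fosb in DAT;NuTRAP libraries gave 0.44 ± 0.36.

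Of the other transcription factors, Egr1 had medians of 42.9 CPM in old and 29.6 CPM in young VGAT;NuTRAP libraries (0.47 ± 0.20, adjusted p = 0.826), and Nr4a1 had medians of 8.72 and 6.73 CPM (0.49 ± 0.20, adjusted p = 0.784). In DAT;NuTRAP libraries Egr1 gave 0.15 ± 0.34 and Nr4a1 0.34 ± 0.38. Nr4a3, the close relative of Nr4a1, had 0.17 ± 0.30 in DAT;NuTRAP libraries and 0.34 ± 0.21 in VGAT;NuTRAP libraries, and Npas4 had 1.17 ± 0.98 and 0.29 ± 0.34. Among the effectors, Arc stood at 0.02 ± 0.25 in DAT;NuTRAP and -0.33 ± 0.23 in VGAT;NuTRAP libraries, Dusp1 at 0.22 ± 0.18 and 0.03 ± 0.11, and Ier2 at 0.27 ± 0.28 and -0.04 ± 0.23. The interval of ± 2 SE ran from -0.40 to 1.05 log2 for Fos in DAT;NuTRAP libraries and from -0.18 to 0.25 log2 for Dusp1 in VGAT;NuTRAP libraries.

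Astrocyte markers leaned the same way with age in both models. In old against young DAT;NuTRAP libraries 10 of 10 astrocyte markers (5 at an unadjusted p below 0.05) and 9 of 10 microglial markers (5) had estimates above 0. In VGAT;NuTRAP libraries 9 of 10 astrocyte markers (6) and 7 of 10 microglial markers (0) did, with 0 called in each list. Of all genes, 5.28% in DAT;NuTRAP and 5.98% in VGAT;NuTRAP libraries had an unadjusted p below 0.05. Summed astrocyte markers were at 1350 to 3120 CPM in old and 1020 to 2370 CPM in young DAT;NuTRAP libraries, and at 1010 to 1520 CPM in old and 965 to 1210 CPM in young VGAT;NuTRAP libraries. Every oligodendrocyte and endothelial marker also had an age estimate above 0 in DAT;NuTRAP libraries, and every tested mural marker was below 0. Summed oligodendrocyte markers had medians of 1370 CPM in old and 1190 CPM in young DAT;NuTRAP libraries, and 354 and 375 CPM in VGAT;NuTRAP libraries. For endothelium the medians were 173 and 118 CPM, and 56.4 and 45.6 CPM. The part of these cells in the age estimates was not tested.

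One mouse held several of the highest values. Old DAT;NuTRAP female 1 was the highest of the 19 DAT;NuTRAP libraries for 5 of the 10 genes, with 53.8 CPM of Fos, 23.1 of Fosb, 2.93 of Npas4, 31.6 of Nr4a1 and 15.0 of Nr4a3. Without it all 10 estimates for old over young stayed above 0 and their median was 0.16. Fosb then gave 0.13 ± 0.33 and Fos 0.15 ± 0.34.

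The common sign in DAT;NuTRAP libraries did not hold within batches. In the second batch (5 old, 6 young) 6 of 10 estimates were below 0, with a median of -0.12, and the ages overlapped for all 10 genes (0.606% of all genes did not overlap). In the first batch (4 old, 4 young) 9 of 10 were above 0, with a median of 0.93. There Junb measured 12.6 to 19.9 CPM in old and 3.0 to 8.10 CPM in young libraries (1.46 ± 0.26, adjusted p = 0.136), and Dusp1 measured 16.0 to 26.1 CPM and 8.85 to 12.3 CPM (0.92 ± 0.17, adjusted p = 0.136). The old and young libraries did not overlap for these 2 of the 10 genes, as for 6.86% of all genes, and in the second batch both pointed the other way, at -0.27 ± 0.30 for Junb and -0.28 ± 0.23 for Dusp1. The same first-batch libraries also differed in GC-rich transcripts, with median deviations from -0.20 to 0.00 log2 in old and from -0.66 to -0.20 in young mice, and the part of this in the Junb values was not tested. Of the VGAT;NuTRAP estimates 9 of 10 were above 0 in the second batch (median 0.46) and 3 of 10 in the first (median -0.12). The only old VGAT;NuTRAP libraries of the first batch were the female of 24 months and male 1, low in GC-rich transcripts.

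**Figure D3:**
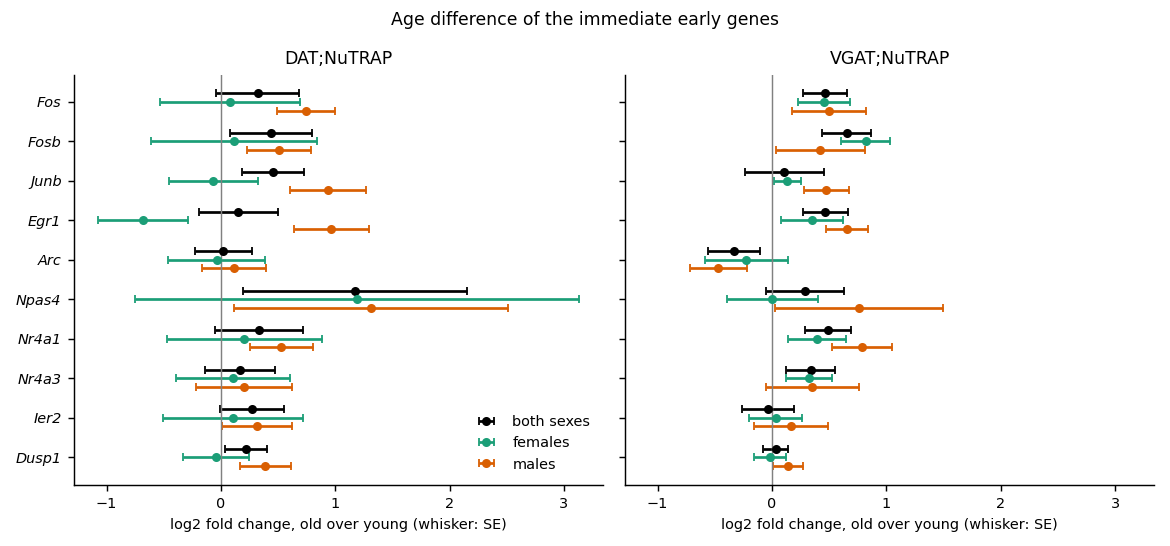
Log2 fold change of old over young (x axis) for each gene (y axis) in DAT;NuTRAP (left) and VGAT;NuTRAP libraries (right), for both sexes, females and males; whiskers are SEs. With both sexes all 10 DAT;NuTRAP estimates and 8 of 10 VGAT;NuTRAP estimates lie above 0, and none passed the adjusted threshold.

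The study also ran the ages separately in each sex. In DAT;NuTRAP males 0 of 10 genes were called (0% of 15789 genes, 0 of 10 by DESeq2, 3 of 10 at an unadjusted p below 0.05 against 5.5% of all genes) and all 10 estimates were above 0, with a median of 0.52. Egr1 measured 19.4, 29.0, 24.1, 28.5 and 23.0 CPM in the 5 old males and 9.28, 31.1, 8.51, 6.75 and 9.14 CPM in the 5 young males. The old males lay close together, and 4 of 5 young males lay below all of them. The log2 fold change was 0.97 ± 0.33 (adjusted p = 0.868). The exception was young male 2, with the highest Egr1 of all DAT;NuTRAP libraries (31.1 CPM). This library was low in GC-rich transcripts, and the part of that in its Egr1 value was not tested. Without young male 2 the log2 fold change was 1.57 ± 0.19 (adjusted p = 0.00988) and Egr1 was the 1 gene called of 16160 (0.00619%). That library was picked out after its values were seen. Junb (0.94 ± 0.33) and Fos (0.75 ± 0.25) had adjusted p = 0.868 in DAT;NuTRAP males, and without young male 2 gave 0.59 ± 0.28 (adjusted p = 0.713) and 1.18 ± 0.18 (0.0987).

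In DAT;NuTRAP females 0 of 10 genes were called (0% of 14839 genes, 0 by DESeq2, 0 at an unadjusted p below 0.05 against 4.05% of all genes), 6 estimates were above 0 and the median was 0.09. Egr1 measured 30.3, 10.3, 8.97 and 9.32 CPM in the 4 old females and 19.3, 9.81, 29.8, 22.5 and 30.7 CPM in the 5 young females (-0.68 ± 0.39). Old female 1 stood apart here as well, and without it 8 of 10 estimates were below 0 with a median of -0.55. It was the only old DAT;NuTRAP female of the first batch, so the age estimate without it rests on the second batch. The parts of this mouse and of its batch cannot be told apart here. Tested directly, the age difference of females minus that of males was below 0 for all 10 genes in DAT;NuTRAP libraries but called for 0 (0% of genes, 0 of 10 by DESeq2, 2 of 10 at an unadjusted p below 0.05 against 3.77% of all genes). Egr1 had the largest such difference, -1.68 ± 0.58 (adjusted p = 1.00), followed by Junb at -1.06 ± 0.51.

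In VGAT;NuTRAP females Fosb measured 7.46 to 11.7 CPM in 5 old and 3.15 to 7.62 CPM in 6 young mice (0.82 ± 0.21, adjusted p = 0.451). In VGAT;NuTRAP males Egr1 measured 33.4, 48.2 and 37.9 CPM in the 3 old and 26.4, 26, 17.8 and 32.3 CPM in the 4 young mice (0.65 ± 0.18, adjusted p = 0.769). The ages did not overlap for Egr1 and Nr4a1 in these males, 2 of 10 genes, against 4.64% of all genes. Called genes numbered 0 of 10 in each sex by both tools (0.032% of genes called in females and 0.0315% in males), with 1 and 3 of the 10 genes at an unadjusted p below 0.05 (5.59% and 5.12% of all genes). The difference between the sexes was called for 0 of 10 genes (0% of genes, 0 by DESeq2, 0 at an unadjusted p below 0.05 against 5.11% of all genes).

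The age difference in DAT;NuTRAP minus that in VGAT;NuTRAP libraries was called for 0 of 10 genes (0% of genes, 0 of 10 by DESeq2, 0 at an unadjusted p below 0.05 against 2.76% of all genes), with 5 estimates on each side of 0. The values ran from -0.32 ± 0.41 for Egr1 to 0.88 ± 1.03 for Npas4, and for Fos it was -0.12 ± 0.43 with an interval from -0.97 to 0.74. Within batches 3 of 10 estimates were above 0 in the second (median -0.39) and 9 of 10 in the first (median 0.76). The old VGAT;NuTRAP libraries of the first batch were only the female of 24 months and male 1, as above.

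Sex itself gave 0 of 10 calls in either model (0.148% of genes called in DAT;NuTRAP, 0.0641% in VGAT;NuTRAP, 0 of 10 by DESeq2 in both, and 0 and 2 of 10 at an unadjusted p below 0.05, against 5.51% and 10.3% of all genes). In VGAT;NuTRAP libraries, female over male, Ier2 gave 0.48 ± 0.22 and Junb 0.64 ± 0.35. Without the 2 VGAT;NuTRAP males low in GC-rich transcripts these were 0.09 and -0.00.

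Some of the 10 genes differed between batches. In VGAT;NuTRAP libraries, where 28.9% of genes differed between batches, 3 of 10 did. Fos was lower in the second batch, at 10.1, 23.7 and 35.1 CPM, against 24.1, 39.9 and 42.9 CPM in the first (-0.86 ± 0.20, adjusted p = 0.00345), and Nr4a3 was lower too (-0.78 ± 0.22, adjusted p = 0.00963). Arc was higher in the second batch, at 12.2, 15.5 and 37.5 CPM, against 7.28, 11.1 and 13.9 CPM (0.83 ± 0.25, adjusted p = 0.0204), a call lost without the 2 libraries low in GC-rich transcripts (0.79, adjusted p = 0.0948). In DAT;NuTRAP libraries, where 34.4% of genes differed, Nr4a3 was the only one of the 10, at 0.786 to 7.03 CPM in the second and 6.55 to 15.0 CPM in the first batch (-1.15 ± 0.30, adjusted p = 0.00335). Second-batch DAT;NuTRAP libraries detected 14323 to 18170 genes, against 19085 to 21051 in the first batch, and held higher oligodendrocyte markers (8 of 8 called). GC-rich transcripts also leaned lower in the first batch of both models, and the part of this in the batch differences was not tested. What the batch label stands for beyond its name was not tested.

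Mice of the same group differed widely. The biological coefficient of variation, edgeR's estimate of spread between libraries beyond counting noise, was 0.523 for Fos, 0.503 for Egr1 and 0.545 for Nr4a1 in DAT;NuTRAP libraries, where the median gene had 0.250. The VGAT;NuTRAP values were 0.267, 0.278 and 0.287, against 0.145 for the median gene. All 10 genes lay above the median gene in both models, but spread is larger at low levels. Against the value edgeR fits for genes of the same level, 8 of 10 genes lay above in DAT;NuTRAP libraries (Ier2 and Dusp1 below) and 9 of 10 in VGAT;NuTRAP libraries (Npas4 below). More than 1.5 times that value was reached by Fos, Egr1 and Nr4a1 in DAT;NuTRAP, and by Fos, Junb, Egr1 and Arc in VGAT;NuTRAP libraries, whereas Arc and Nr4a3 in DAT;NuTRAP were close to it (0.381 against 0.380 and 0.463 against 0.459). Dusp1 varied least of the 10 (0.277 and 0.159), and Npas4 in DAT;NuTRAP (1.27) and Junb in VGAT;NuTRAP libraries (0.510) varied most. The lowest VGAT;NuTRAP values of Junb, 2.02 and 1.31 CPM, came from the libraries low in GC-rich transcripts. In second-batch VGAT;NuTRAP libraries Junb ran from 9.57 to 14.6 CPM. Its spread without the libraries low in GC-rich transcripts was not computed.

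Part of this spread was shared between genes. After removal of batch and age, mice with high Fos had high Egr1 in DAT;NuTRAP libraries (Pearson r = 0.85, Spearman rho = 0.82, n = 19, permutation p = 1e-05, the smallest that 100000 permutations can give, adjusted p = 0.00018 over 18 relations of Fos). Without the 2 mice farthest from the median of Fos r was 0.81, and it was 0.86 in the second and 0.84 in the first batch. Nr4a1 also followed Fos in DAT;NuTRAP libraries (r = 0.78, rho = 0.76, permutation p = 0.00014, adjusted p = 0.00084, 0.76 without those 2 mice, 0.74 and 0.85 in the second and first batch), as did Fosb (r = 0.64, rho = 0.64, permutation p = 0.00305, adjusted p = 0.0110, 0.56 without those mice, 0.48 and 0.92 in the second and first batch).

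In VGAT;NuTRAP libraries Nr4a3 was the closest to Fos (r = 0.77, rho = 0.78, n = 18, permutation p = 0.00013, adjusted p = 0.00084, 0.72 without the 2 farthest mice, 0.69 and 0.87 in the second and first batch). Fosb came next (r = 0.72, rho = 0.69, permutation p = 0.00067, adjusted p = 0.00301, 0.57 without those mice, 0.46 and 0.95 in the second and first batch), with r = 0.55 (adjusted permutation p = 0.0817) without the 2 libraries low in GC-rich transcripts. Egr1 in VGAT;NuTRAP passed by rank alone (r = 0.49, adjusted permutation p = 0.118, rho = 0.60, adjusted permutation p = 0.0303). Arc did not follow Fos in DAT;NuTRAP libraries (r = -0.00, rho = -0.04, permutation p = 0.993), and gave r = 0.42 (rho = 0.40, permutation p = 0.0848) in VGAT;NuTRAP libraries. In all, 5 of 18 relations passed the adjusted threshold by Pearson's r and 6 by Spearman's rho.

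Over the 45 pairs among the 10 genes, the median r was 0.33 in DAT;NuTRAP libraries (38 pairs above 0) and 0.26 in VGAT;NuTRAP libraries (39 pairs above 0), where the median over pairs of all genes was 0.01 and -0.00. These medians are a description, since the pairs share libraries. Junb and Ier2 had the highest r of the VGAT;NuTRAP pairs, 0.83, and 0.62 without the 2 libraries low in GC-rich transcripts. In DAT;NuTRAP libraries that pair gave 0.01.

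**Figure D4:**
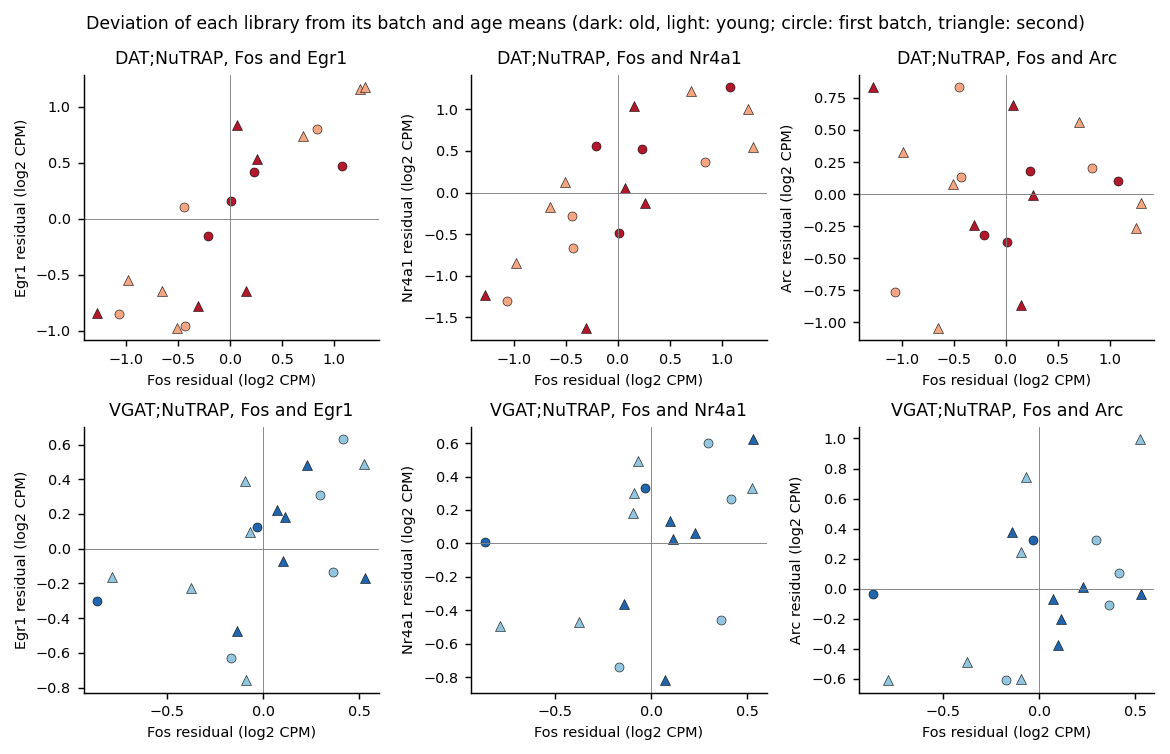
Deviation of each library from its batch and age means, in log2 CPM, for Fos (x axis) against Egr1, Nr4a1 and Arc (y axes) in DAT;NuTRAP (top) and VGAT;NuTRAP (bottom) libraries; each point is a mouse, dark for old and light for young, circles for the first and triangles for the second batch. The DAT;NuTRAP points of Egr1 follow Fos (r = 0.85), and those of Arc do not (r = -0.00).

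Junb, and in VGAT;NuTRAP Ier2, were low in the libraries that stood apart. The canonical transcript of Junb is 62.6% G and C and that of Ier2 60.9%, the highest of the 10 genes, while Nr4a3 is lowest at 48.4%. Junb had 3.0 CPM in young DAT;NuTRAP male 2, 2.02 CPM in old VGAT;NuTRAP male 1 and 1.31 CPM in young VGAT;NuTRAP male 1, each the lowest of its group. Without these 3 libraries Junb gave 0.23 ± 0.10 for old over young in VGAT;NuTRAP libraries (adjusted p = 0.608) and 0.29 ± 0.26 in DAT;NuTRAP libraries. Ier2 was low in the VGAT;NuTRAP pair, but at 5.55 CPM in the DAT;NuTRAP library.

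**Figure D5:**
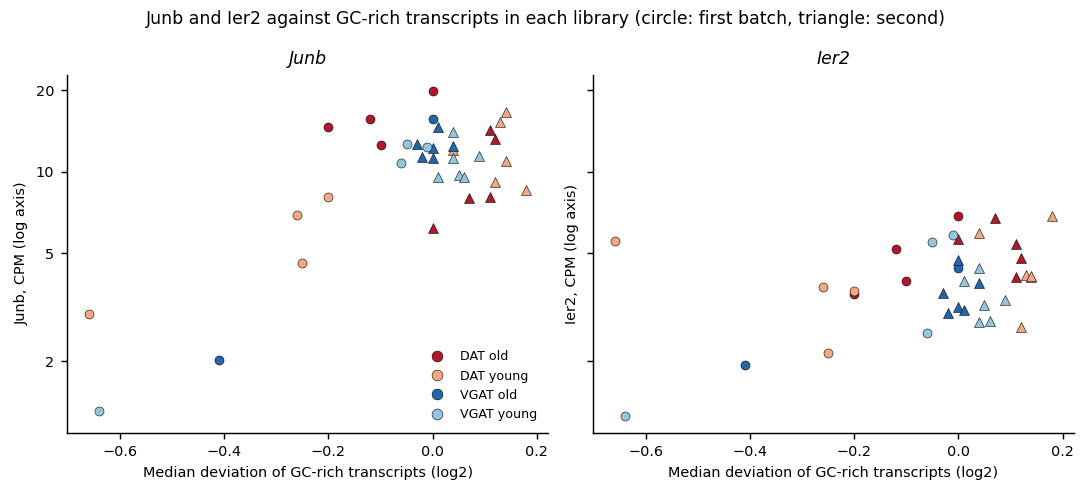
Junb (left) and Ier2 (right) in CPM on a log axis (y) against the median log2 deviation of GC-rich transcripts in each library (x); colours give model and age, circles the first and triangles the second batch. The libraries at -0.66, -0.64 and -0.41 hold the 3 lowest Junb values, 3.0, 1.31 and 2.02 CPM.

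No gene of the wider response program was called with age, where 0.00672% of all genes in DAT;NuTRAP and 0.0256% in VGAT;NuTRAP libraries were called. Of all genes, 5.28% in DAT;NuTRAP and 5.98% in VGAT;NuTRAP libraries had an unadjusted p below 0.05, the shares to set beside each list below. Of 50 other primary response genes, 47 were tested in DAT;NuTRAP and 48 in VGAT;NuTRAP libraries, and 0 were called in either (6 and 3 at an unadjusted p below 0.05), with medians of 0.13 and 0.02. Fosl2, a further AP-1 subunit, gave 0.79 ± 0.26 (adjusted p = 0.870) in DAT;NuTRAP libraries, and Per1, a clock gene that CREB also induces, gave 0.28 ± 0.08 (adjusted p = 0.456) in VGAT;NuTRAP libraries. Of 23 later effectors, such as Bdnf and other secreted or synaptic products, 0 were called in either model (0 and 3 at an unadjusted p below 0.05). Rasgrp1, an activator of Ras, had the smallest p in VGAT;NuTRAP libraries (-0.60 ± 0.16, adjusted p = 0.457). Of 35 upstream kinases, phosphatases and factors, 0 were called in either model (2 and 1 at an unadjusted p below 0.05). Calls of these lists by DESeq2 were not counted.

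Between cell types, where 60.5% of all genes were called (30% higher, 30.4% lower), the lists differed in their shares. In DAT;NuTRAP against VGAT;NuTRAP libraries 14 primary response genes were higher and 16 lower of 48 tested, or 62.5% called, near the share of all genes. Nr4a2, a nuclear receptor that specifies dopamine neurons and belongs to the family of Nr4a1 and Nr4a3, was higher (1.95 ± 0.11, adjusted p = 2.71e-18), as was Btg2 (1.76 ± 0.12, adjusted p = 5.95e-16). Of the later effectors 10 were higher and 9 lower of 23 (82.6% called), among them Nrn1, a neurite growth factor (2.19 ± 0.10), and Nefm, a neurofilament subunit (-2.35 ± 0.08). Of the upstream regulators 4 were higher and 25 lower of 35 (11.4% and 71.4%), with a median of -0.43. These shares are a description and were not tested against other lists. The MAP kinase Mapk3 was higher (1.24 ± 0.05), and Camkk1, a kinase of the calcium-calmodulin cascade (-1.03 ± 0.06), Arnt2, the partner of Npas4 (-1.05 ± 0.07), and Ppp3ca, the catalytic subunit of calcineurin (-0.58 ± 0.04), were lower.

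Among 14546 genes ranked by likeness to the 10 genes, the lower of the correlations in the DAT;NuTRAP (n = 19) and VGAT;NuTRAP (n = 18) libraries with their mean standardised deviation, the first were Eif4a-ps4 (0.61), Egr4 (0.60), Med26 (0.58), Rsph3b (0.55), Eepd1 (0.54), Dlgap1 (0.54), Fosl2 (0.53), Erf (0.50), Cxadr (0.49) and Gm28578 (0.48). The median gene had -0.18. Egr4 and Fosl2 are primary response genes, 2 of 47 in that list, and Eif4a-ps4 is a pseudogene whose reads may be shared with its parent gene. The points share libraries and depth, so the ranking is a description.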

How the data were processed

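Ribosome-bound RNA (the positive fraction) was sequenced in 37 libraries. Per the labels and methods, the authors aligned trimmed reads with STAR 2.7.10b to mm39 (GRCm39) and counted them per gene with featureCounts, version not given in the sources used here; the deposited tables hold raw counts with no scaling. Whether counting used strand is not stated, so overlapping antisense genes cannot be told apart. Input libraries were not used here.

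The rule for the 10 genes uses symbols alone, but they and the further lists were chosen with earlier results of these data known. Counts were fitted in R 4.3.3 with edgeR 4.0.16 (TMM, filterByExpr with a minimum count of 10, robust quasi-likelihood), with batch as a term of each main comparison, and p-values were adjusted by Benjamini-Hochberg over all genes. "Higher", "lower" and "called" mean an adjusted p below 0.05. SEs derive from the F statistic. Genes named are the 10, at most 4 per list with the smallest p, and the 10 most like them in pattern. GC content and lengths came from canonical transcripts. Correlations used 100000 two-sided permutations in numpy 2.4.6 under Python 3.11.15. Scripts were tested on simulated data. Alternatives were DESeq2 1.42.0, RLE factors, other count filters (none, 30), other covariates, no batch term, a replicate block, single batches and single libraries left out; exclusion of the libraries low in GC-rich transcripts was added after seeing the data. Separate mice make the replicates, 70 pairs within groups held no duplicate, and intervals on a count of 0 cover counting error only.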

Additional observations from a re-analysis of the deposited data

Results flagged for a closer look

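Of 40 combinations of gene, model and age, 4 held a library whose gap to the nearest other library exceeded Dixon's limit, where chance flags about 1 in 20. In old DAT;NuTRAP mice, female 1 stood above the rest for Fos (53.8 CPM, next 29.9) and Fosb (23.1 CPM, next 9.87). Junb stood below the rest in old VGAT;NuTRAP male 1 (2.02 CPM, next 11.2) and in young VGAT;NuTRAP male 1 (1.31 CPM, next 9.57), both libraries low in GC-rich transcripts. No age effect on the 10 genes differed between sexes or cell types at an adjusted p below 0.05.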

How the results depend on the processing

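Across 3576 refits of single genes, 3407 kept their side of the threshold and stayed near their value, 105 moved, 34 lost and 30 gained a call, and none of the called values reversed; 154 estimates, none of them called, changed sign. The number of the 10 genes called for DAT;NuTRAP over VGAT;NuTRAP was 4, where 60.5% of all genes were called. Percentages in brackets give that share in the setting named. The number became 2 with no filter on low counts (37.6%) and 2 with a replicate block (53.7%). It was 0 in the first batch (43.9%), 2 in the second (56.6%) and 2 without the libraries low in GC-rich transcripts (59.8%). With single libraries left out it was 3 to 5. In young mice it was 2 (49.8%), and 1 with the block (42.9%), in the first batch (Dusp1, 32.1%) and in the second (Arc, 47.4%). It was 2 to 3 there with single libraries left out. In old mice it was 1 (46.8%), and 2 with DESeq2 (49.5%), with a minimum count of 30 (54.0%) and in the second batch (43.5%). It was 0 there in the first batch (27.8%), and 1 to 3 with single libraries left out. For old over young it was 0, and became 1 in VGAT;NuTRAP with a replicate block (Nr4a1, 0.99, adjusted p = 0.0317, 0.0456%) and in the second batch (Fosb, 0.333%). With no filter on low counts it became 2 in DAT;NuTRAP males (0.402%), 1 in VGAT;NuTRAP females (0.198%) and 1 in VGAT;NuTRAP males (0.308%). The number with no such filter was 1 for age by sex in DAT;NuTRAP (0.117%) and 2 for female over male in VGAT;NuTRAP (1.54%). For age in DAT;NuTRAP males it was 0 to 1 with single libraries left out. The 1 came without young male 2 (0.00619%), the only DAT;NuTRAP library low in GC-rich transcripts, so leaving out such libraries is the same refit. The 3 batch calls in VGAT;NuTRAP became 1 with library size as a covariate (11.2%). The cause was not tested, except that fits in single batches hold fewer libraries.

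Replicate numbers were shared between ages and models but came from different mice. The correlation of same-numbered libraries exceeded 0.1 in 4 of 9 pairs of old and young DAT;NuTRAP, 2 of 8 of VGAT;NuTRAP, and 1 of 7 old and 0 of 9 young pairs of models, so the numbers did not pair libraries. The age fit of VGAT;NuTRAP males without the libraries low in GC-rich transcripts was not run, since both dropped libraries are its only first-batch males. Depth limits Npas4 most.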
